A study of Mus musculus with 8 samples.

Results

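The fibrillar collagen genes that bone-forming cells are known to transcribe, *Col1a1* and *Col1a2* for type I, *Col3a1* for type III, *Col5a1*, *Col5a2* and *Col5a3* for type V and *Col24a1* for type XXIV, were examined in RNA-Seq counts of tibial and femoral cortical bone. They were taken by symbol, and all 7 are among the 19201 genes of the table and among the 15318 genes that passed the filter on low counts. The 4 samples of *Prx1Cre; Piezo1fl/fl* mice (*Piezo1*-deficient below) and the 4 WT samples, replicates 1, 3, 4 and 5 of each genotype, came from mice aged 6 weeks on the C57BL/6J background. In the *Piezo1*-deficient mice, Cre under the Prx1 enhancer removes the floxed *Piezo1* gene, which encodes a mechanically gated cation channel, in the limb mesenchyme that gives rise to osteoblasts and chondrocytes, and spares cells of the blood lineage, osteoclasts among them. The sources do not state whether the WT mice carried Cre or a floxed allele, and the general statement that each group held several mice does not tie the samples to animals. The p-values therefore rest on the variation among the deposited samples, which may in part be technical.

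Fibrillar collagens are made as procollagens whose chains wind into a long triple helix inside the cell, and after secretion and removal of their end propeptides they assemble into fibrils. Type I, built from a pair of alpha-1 chains and a single alpha-2 chain, forms most of the organic matrix of bone and carries its mineral. Type V starts the fibril and limits its width, type III is abundant in periosteum, vessels and healing bone, and type XXIV is a minor collagen of bone-forming cells.

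Libraries held 12090403 to 13841709 counts in *Piezo1*-deficient bone and 11963536 to 14536106 counts in WT bone. The lowest count of any member in a library was 1216, where counting alone gives an error of 2.87%. The spread between samples was larger than this for every member. For *Col5a3* in WT bone it was only 3.84% of the mean, so depth was a part of that spread. Counts were scaled by TMM to CPM, counts per 1000000 counts of the adjusted library size. As a check of the labels, *Piezo1* had 138 ± 6.37 CPM in *Piezo1*-deficient bone and 205 ± 9.94 CPM in WT bone (SD, n = 4 each), 67.4% of the WT level (-0.57 on the log2 scale, adjusted p = 0.0027 from edgeR). *Piezo1*-deficient replicate 1 stood apart on the second principal component (22.7% of the variance), at 37.9. WT replicate 1 was next, at 17, with the other libraries at -17.6 to 5.84. *Piezo1*-deficient replicate 1 was also the highest of all 8 libraries for 6 of the 7 members, the exception being *Col5a3*. Skeletal muscle markers summed to 491.5 to 4689.9 CPM in *Piezo1*-deficient bone and 25.7 to 171.8 CPM in WT bone, with 11 of 12 called higher, and chondrocyte markers summed to 474 to 580 CPM and 3836 to 7274 CPM in the same order, with 10 of 10 called lower. Blood cell markers summed to 687 to 1947 CPM in *Piezo1*-deficient and 1286 to 1954 CPM in WT bone, with 0 of 6 called. In *Piezo1*-deficient bone, all 7 members had their highest value in replicate 1. Its chondrocyte and blood sums were the lowest of that genotype, and its muscle sum of 491.5 CPM was close to the 497.1 CPM of replicate 5. In WT bone, all members but *Col24a1* were highest in replicate 1, with the lowest blood sum but the highest chondrocyte sum of that genotype. The part of muscle, cartilage and blood cells in the values below was not tested.

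All 6 members other than *Col5a3* had higher means in *Piezo1*-deficient than in WT bone, but none passed the test across all genes. edgeR called 0 of the 7 at an adjusted p under 0.05, while 2.04% of the tested genes were called higher and 0.973% lower. At an unadjusted p under 0.05, 6 of the 7 were higher (*Col1a1*, *Col1a2*, *Col3a1*, *Col5a1*, *Col5a2* and *Col24a1*), against 10.5% of tested genes in that direction. That count was 3 without WT replicate 4, where 7.94% of genes were higher at that threshold, and 2 without WT replicate 5, where 8.01% were. The Wald test of DESeq2 called 2 of the 7 higher, *Col1a1* and *Col1a2*, against 3.22% of its genes. The median log2 fold change of the 7 was 0.38, beside 0.0050 over all tested genes. In bulk bone, a change in the number of cells that make collagen and a change in collagen RNA per cell cannot be told apart. Osteoblast markers summed to 16021 to 22840 CPM in *Piezo1*-deficient and 14332 to 18770 CPM in WT bone, with 9 of 10 log2 fold changes above 0 and a median of 0.23. Of these, 2 were called higher, *Bglap* (0.58, adjusted p = 0.0246 from edgeR) and *Bglap2* (0.56, adjusted p = 0.0364), near-identical osteocalcin genes whose reads may be shared, while *Runx2* stood at 0.03, *Ibsp* at 0.12 and *Spp1* at -0.03. Leaving out single libraries gave 0 to 2 of them called. The part of osteoblast number in the collagen values was not tested.

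**Figure D1:**
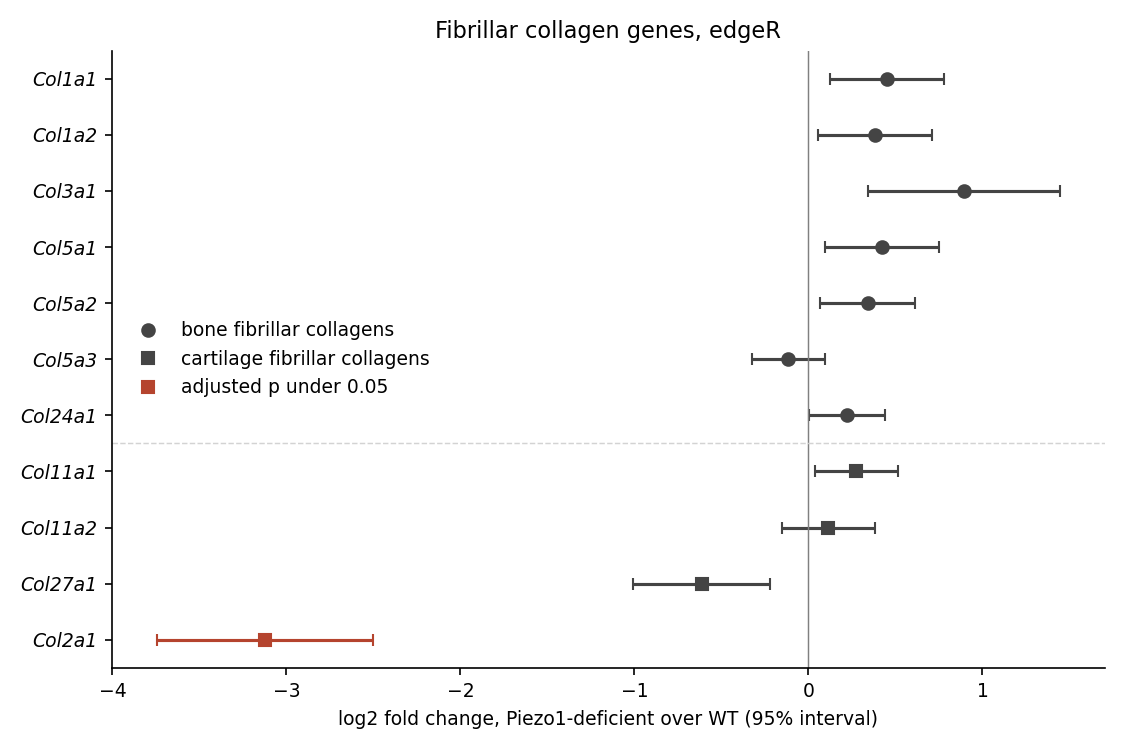
Log2 fold change of *Piezo1*-deficient over WT bone (x axis) with its 95% interval from edgeR, for the 7 bone fibrillar collagens (circles) and 4 cartilage fibrillar collagens (squares), 4 libraries per genotype. Estimates of the bone collagens run between -0.12 for *Col5a3* and 0.89 for *Col3a1*, none passing an adjusted p of 0.05, and *Col2a1*, in red, lies at -3.12.

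Promoter sequence was matched for 5 of the 7 members, as the 250 bases upstream of the start site in RefSeq on GRCm38.p6. Those of *Col1a2*, *Col3a1* and *Col5a3* are shown because these genes represent the 3 patterns in the data, described in turn below: *Col1a2* the shared pattern of the main chains, *Col3a1* the widest spread between samples, and *Col5a3* the lack of a higher mean. Capitals mark matches to a CCAAT box (CCAAT), a GC box (GGGCGG) and a TEAD site (CATTCC), each searched on both strands. TEAD is the DNA-binding partner of YAP and TAZ, which respond to mechanical load. A RUNX site (TGTGGT) and an AP-1 site (TGANTCA) were searched as well and had no match in the 5 windows.
*Col1a2* (chr6:4505368-4505617, plus strand): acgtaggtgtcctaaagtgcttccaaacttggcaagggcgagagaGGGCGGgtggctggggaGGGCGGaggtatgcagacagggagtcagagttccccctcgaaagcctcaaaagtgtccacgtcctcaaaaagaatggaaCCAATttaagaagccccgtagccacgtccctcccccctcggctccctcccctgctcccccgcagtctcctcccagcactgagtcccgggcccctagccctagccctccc
*Col3a1* (chr1:45311288-45311537, plus strand): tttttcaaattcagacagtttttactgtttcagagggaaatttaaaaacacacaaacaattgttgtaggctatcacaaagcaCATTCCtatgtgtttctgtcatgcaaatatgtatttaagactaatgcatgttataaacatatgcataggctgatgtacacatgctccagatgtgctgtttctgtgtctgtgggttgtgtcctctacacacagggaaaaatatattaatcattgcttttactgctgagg
*Col5a3* (chr9:20815068-20815317, minus strand): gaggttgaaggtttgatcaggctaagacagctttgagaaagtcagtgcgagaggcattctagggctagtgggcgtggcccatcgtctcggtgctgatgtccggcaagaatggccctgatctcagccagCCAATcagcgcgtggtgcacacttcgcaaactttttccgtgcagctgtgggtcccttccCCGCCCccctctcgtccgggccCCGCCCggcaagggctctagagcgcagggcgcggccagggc
The *Col1a2* window holds a CCAAT box whose first base lies at -109 and GC boxes at -205 and -188. That of *Col3a1* holds neither motif and has a TEAD match at -168, and only 35.2% of its bases are G or C, against 62% for *Col1a2* and 62.8% for *Col5a3*. The *Col5a3* window has a CCAAT box at -122 and GC boxes at -63 and -41. Of the matched windows not shown, that of *Col5a1* holds GC boxes at -205 and -73 but no CCAAT box. That of *Col24a1*, like that of *Col3a1*, holds neither motif, and it has no TEAD match. Such matches are common: of 32851 RefSeq promoters of the same length, 33.8% hold a CCAAT box, 32.7% a GC box and 12.6% a TEAD match, so they describe the letters only.

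Type I collagen transcripts took 23.9% ± 2.76 of all counts in *Piezo1*-deficient bone and 19.6% ± 1.33 in WT bone (SD, n = 4 each). *Col1a1*, which lies at chr11:94797538-94814356 on NCBIM37 (mm9), had 160240, 111990, 116130 and 135600 CPM in *Piezo1*-deficient replicates 1, 3, 4 and 5, against 107960, 99305, 87754 and 88083 CPM in the WT replicates. Every *Piezo1*-deficient library was above every WT library, a separation in this direction that 6.65% of tested genes also had. The fold change was 0.45 on the log2 scale (SE 0.15, 95% interval 0.12 to 0.78, adjusted p = 0.134 from edgeR, two-sided exact permutation p = 0.0286, below which 4 against 4 libraries cannot go). With the Wald test of DESeq2 the adjusted p was 0.0127. Without *Piezo1*-deficient replicate 1 or WT replicate 3, 4 or 5 the exact permutation p was 0.0571, and the log2 difference of means was 0.34 to 0.46.

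*Col1a2* (chr6:4454814-4491543), which encodes the other chain of type I collagen, had 149020, 102530, 107320 and 123740 CPM in *Piezo1*-deficient replicates 1, 3, 4 and 5, against 103770, 94049, 86600 and 85759 CPM in WT. The genotypes overlapped through WT replicate 1, which exceeded *Piezo1*-deficient replicate 3. Its log2 fold change was 0.38 (SE 0.15, 95% interval 0.06 to 0.71, adjusted p = 0.197 from edgeR and 0.0492 from DESeq2, two-sided exact permutation p = 0.0571). In both type I genes the spread within *Piezo1*-deficient bone was wide in comparison with the difference between genotypes. The lowest and highest *Piezo1*-deficient libraries differed 1.43-fold for *Col1a1* and 1.45-fold for *Col1a2*, with replicate 1 the highest for both. The WT libraries spanned 1.23-fold and 1.21-fold in that order, less than the fold change between genotypes.

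*Col3a1* (chr1:45368383-45406551), the only gene of type III collagen, had the largest fold change of the 7. It had 4976, 2912.1, 2911.6 and 3179.4 CPM in *Piezo1*-deficient replicates 1, 3, 4 and 5, against 2869.8, 1742, 1672.3 and 1249.6 CPM in WT. All *Piezo1*-deficient libraries were above all WT libraries, though WT replicate 1, at 2869.8, came close to the lowest of them, at 2911.6. The mean was 1.86-fold higher (95% interval 1.27 to 2.72, 0.89 on the log2 scale with SE 0.25, adjusted p = 0.0862 from edgeR, two-sided exact permutation p = 0.0286). Its coefficient of variation was 28.5% in *Piezo1*-deficient bone and 36.8% in WT bone, and the WT libraries alone spanned 2.30-fold. Without any one of the *Piezo1*-deficient libraries the exact permutation p was 0.0571, with a log2 difference of means of 0.74 without replicate 1 and of 0.95 to 1.00 without replicate 3, 4 or 5, against 0.92 with all. Without WT replicate 1, the log2 fold change was 1.17 and the gene passed the test (adjusted p = 0.0250 from edgeR), in a fit where 1.91% of genes were called higher. Tendon and periosteal fibroblast markers, whose cells also make type III collagen, summed to 342 to 590 CPM in *Piezo1*-deficient bone and 328 to 683 CPM in WT bone. The highest sum of each genotype was in replicate 1, where *Col3a1* was also highest. A single gene, *Fmod*, gave 481 CPM of that sum in *Piezo1*-deficient replicate 1 and 347 CPM in WT replicate 1. Of the 9 tested genes of that list, 3 were called higher (*Cilp2*, *Dpt* and *Thbs4*) and 1 lower (*Comp*, which chondrocytes also express). Over all tested genes, 2.04% were called higher and 0.973% lower. The median log2 fold change of the list was 0.52. The genes called higher had low levels, with means of 7.33, 1.91 and 11.4 CPM over the 8 libraries in that order. When single libraries were left out, 1 to 4 were called higher, and 1 was with the filter at a mean of 5 CPM. Without *Comp*, left out after its values were seen, the sums were 313 to 574 CPM in *Piezo1*-deficient bone and 224 to 413 CPM in WT bone, overlapping through WT replicate 1. Vascular smooth muscle cells and pericytes make type III collagen too. Their markers summed to 569 to 760 CPM in *Piezo1*-deficient bone and 467 to 552 CPM in WT bone, highest in replicate 3 of each genotype. Of 7, 4 were called higher, *Acta2*, *Myh11*, *Tagln* and *Des*. *Rgs5*, *Notch3* and *Cspg4* were not (log2 fold changes 0.38, 0.18 and -0.0025). *Des* had 63.6 CPM in *Piezo1*-deficient replicate 3, the library with the highest skeletal muscle sum. It had 13.4 to 31.2 CPM in the others of that genotype and 2.18 to 5.05 CPM in WT. The part of either cell type in the *Col3a1* values was not tested.

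*Col5a1* and *Col5a2* encode the chains of the common form of type V collagen. *Col5a1* (chr2:27741945-27895034) had 2708.6, 1755.5, 1718.4 and 2120.1 CPM in *Piezo1*-deficient replicates 1, 3, 4 and 5, against 1830.9, 1545.3, 1451.2 and 1378.7 CPM in WT. WT replicate 1 lay above *Piezo1*-deficient replicates 3 and 4, so the genotypes overlapped. The log2 fold change was 0.42 (SE 0.15, 95% interval 0.09 to 0.75, adjusted p = 0.159 from edgeR, two-sided exact permutation p = 0.0857).

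*Col5a2* lies at chr1:45431166-45560127, tail to tail with *Col3a1* across a gap of 24.6 kb. It had 6842.4, 4845.6, 5469 and 5677.2 CPM in *Piezo1*-deficient replicates 1, 3, 4 and 5, against 5175, 4683.8, 4254.4 and 3921.5 CPM in WT. The overlap again came from WT replicate 1 and *Piezo1*-deficient replicate 3. The log2 fold change was 0.34 (SE 0.12, 95% interval 0.07 to 0.61, adjusted p = 0.168 from edgeR, two-sided exact permutation p = 0.0571). Its WT libraries spanned 1.32-fold, against the 2.30-fold of its neighbour.

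*Col5a3* (chr9:20574494-20619511) encodes a further type V chain, found in fewer tissues. It was the one member without a higher mean, with 124, 90.4, 120 and 106 CPM in *Piezo1*-deficient replicates 1, 3, 4 and 5, against 126, 115, 117 and 118 CPM in WT. The WT libraries lay close together, and the wider spread of the *Piezo1*-deficient libraries overlapped them. The log2 fold change was -0.12 (SE 0.095, 95% interval -0.33 to 0.10, adjusted p = 0.571 from edgeR, two-sided exact permutation p = 0.371).

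*Col24a1* (chr3:144955436-145214975), for type XXIV, had 399, 346, 295 and 345 CPM in *Piezo1*-deficient replicates 1, 3, 4 and 5, against 304, 330, 270 and 284 CPM in WT. WT replicates 1 and 3 were above *Piezo1*-deficient replicate 4. Its log2 fold change was 0.22 (SE 0.098, 95% interval 0.0044 to 0.44, adjusted p = 0.261 from edgeR, two-sided exact permutation p = 0.0857). The interval for *Col24a1* lies just above 0, holds the estimate for *Col1a2* and ends below that for *Col1a1*.

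**Figure D2:**
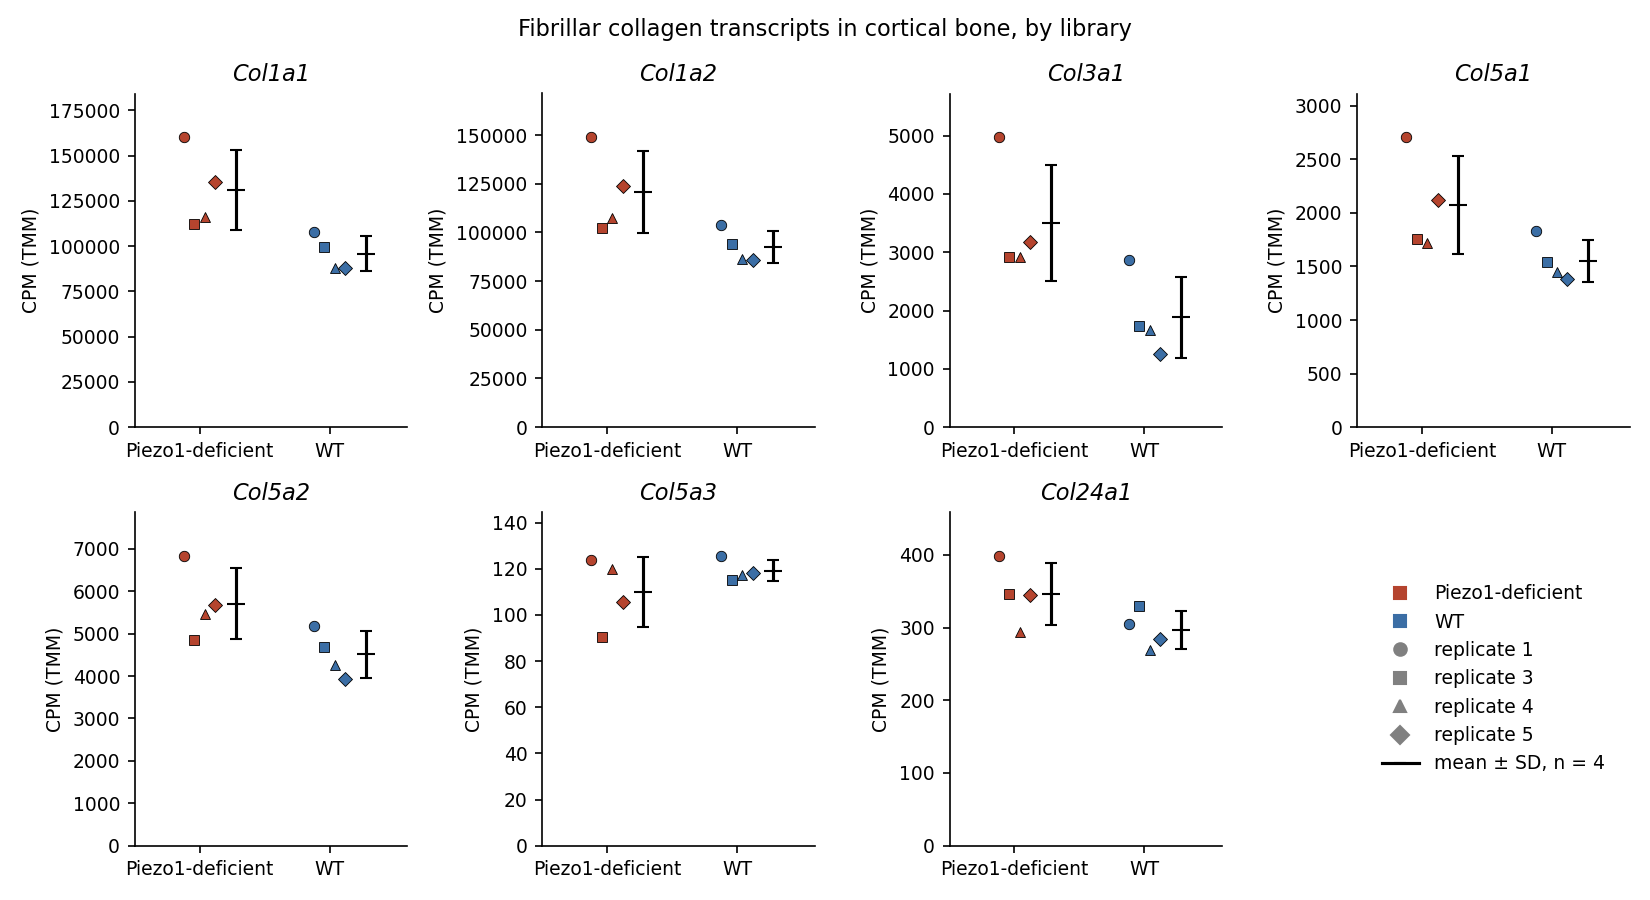
CPM of each of the 7 members (y axis, from 0) in the 4 *Piezo1*-deficient and 4 WT libraries, with symbols for the replicate number and bars for the mean ± SD. Genotypes are fully separated for *Col1a1* and *Col3a1* only, and replicate 1 is the highest *Piezo1*-deficient library in each panel.

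Without the libraries numbered 1 of both genotypes, an alternative chosen after the data were seen, edgeR called 4 of the 7 members higher, in a fit that called 3.88% of genes higher. These were *Col1a1* (log2 fold change 0.40, adjusted p = 0.0187), *Col1a2* (0.32, adjusted p = 0.0378), *Col3a1* (0.94, adjusted p = 0.0015) and *Col5a1* (0.35, adjusted p = 0.0429). The fold changes of the type I genes and of *Col5a1* were thus smaller than with all libraries, and their adjusted p were smaller too.

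To compare genes with each other, CPM were divided by the length of the longest coding transcript. Per kb, the type I genes stood far above the rest, with 22564 ± 3924 for *Col1a2* and 22089 ± 3718 for *Col1a1* in *Piezo1*-deficient bone, against 17308 ± 1564 and 16151 ± 1642 in WT (CPM per kb, SD, n = 4 each). *Col5a2* followed with 862 ± 126 in *Piezo1*-deficient and 681 ± 81.9 CPM per kb in WT bone. *Col3a1* had 628 ± 179 and 339 ± 124, *Col5a1* 247 ± 54.6 and 185 ± 23.6, *Col24a1* 48.5 ± 5.98 and 41.6 ± 3.64, and *Col5a3* 18.0 ± 2.49 and 19.5 ± 0.748 CPM per kb, *Piezo1*-deficient bone before WT. The same order held within each of the 8 libraries. Between libraries, the ranges overlapped for neighbours *Col1a2* and *Col1a1*, for *Col5a2* and *Col3a1*, and for *Col3a1* and *Col5a1*, but not for *Col5a1*, *Col24a1* and *Col5a3*. Of the summed CPM per kb of the 7 genes, type I made up 96.1% ± 0.169 in *Piezo1*-deficient and 96.4% ± 0.317 in WT bone, type V 2.43% ± 0.0794 and 2.54% ± 0.0802, and type III 1.34% ± 0.159 and 0.958% ± 0.258 in that order. The type III share overlapped between the genotypes, since WT replicate 1 had 1.32%, above 2 of the *Piezo1*-deficient libraries.

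**Figure D3:**
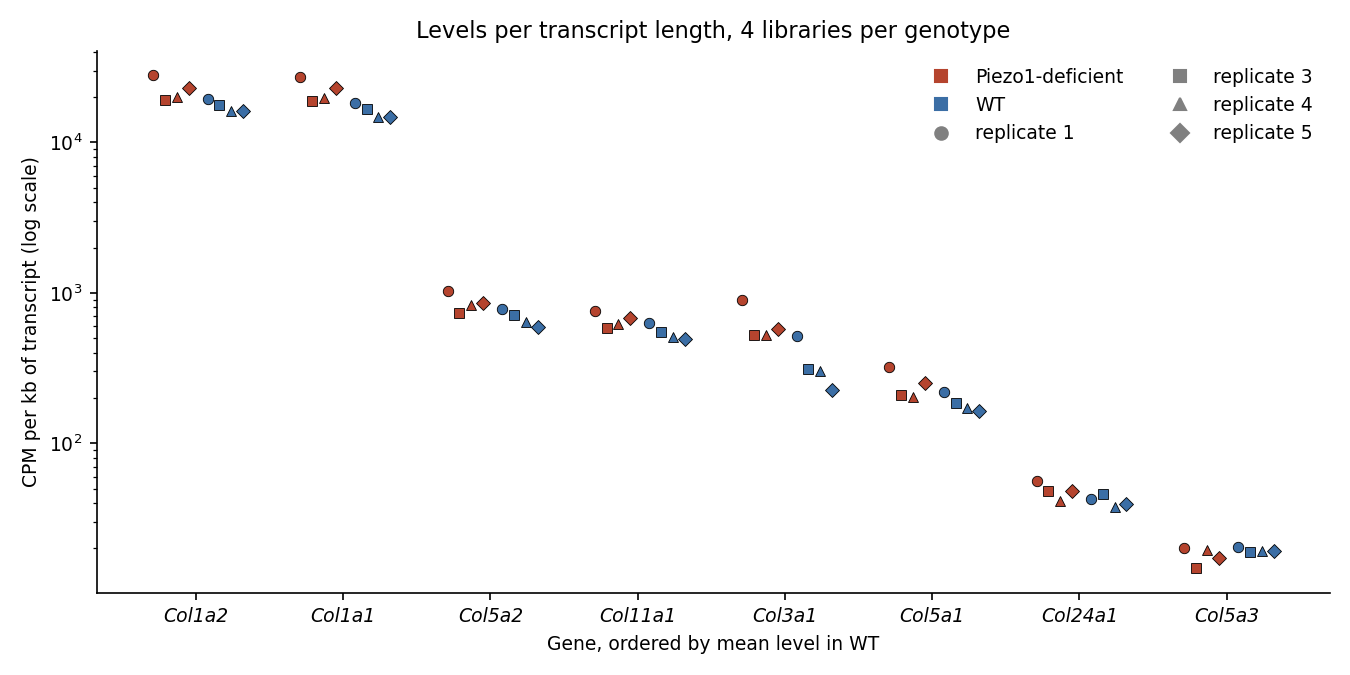
CPM per kb of transcript (log axis) of the 7 members and *Col11a1* in each *Piezo1*-deficient and WT library, ordered by the WT mean. The type I genes lie between 14798 and 27870 CPM per kb, *Col5a2* next at 592 to 1033, and *Col5a3* lies lowest at 14.8 to 20.5 CPM per kb.

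Ratios of 2 chains within a library do not depend on library scaling, and 11 such ratios were compared. The ratio of *Col1a1* to *Col1a2* was the tightest. Per kb it was 0.970, 0.985, 0.976 and 0.988 in *Piezo1*-deficient replicates 1, 3, 4 and 5, against 0.938, 0.952, 0.914 and 0.926 in WT. Every *Piezo1*-deficient library was above every WT library, by a mean of 1.05-fold (log2 difference 0.07, two-sided exact permutation p = 0.0286, 0.126 after adjustment over the 11 ratios). Its SD over the 4 libraries was 0.00850 in *Piezo1*-deficient and 0.0164 in WT bone, so the genotypes differed by more than their spread, though not past the adjusted threshold. The log2 difference stayed between 0.06 and 0.08 when any single library was left out. The level of this ratio depends on the length used and is not a measure of chain stoichiometry. With the union of all annotated exons, which for *Col1a2* is 12145 bases against 5347 in the longest coding transcript, it was 2.01 in *Piezo1*-deficient and 1.91 in WT bone.

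The minor chains were then set against *Col1a1*, as a percentage of its level per kb. *Col5a3* stood at 0.0749, 0.0782, 0.1001 and 0.0756% in *Piezo1*-deficient replicates 1, 3, 4 and 5, against 0.113, 0.112, 0.130 and 0.130% in WT. All *Piezo1*-deficient values were below all WT values, with a mean of 0.675-fold (log2 difference -0.57, two-sided exact permutation p = 0.0286, 0.126 after adjustment over the 11 ratios). Relative to *Col1a1*, then, *Col5a3* was lower in each *Piezo1*-deficient library, while its own CPM overlapped between genotypes.

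For *Col3a1*, the percentages of the *Col1a1* level were 3.31, 2.77, 2.67 and 2.50% in *Piezo1*-deficient bone, against 2.83, 1.87, 2.03 and 1.51% in WT. WT replicate 1 lay inside the *Piezo1*-deficient range (log2 difference 0.48, two-sided exact permutation p = 0.114). *Col5a1* hardly moved against *Col1a1*, at 1.11% ± 0.0612 in *Piezo1*-deficient and 1.14% ± 0.0481 in WT bone (SD, n = 4 each, two-sided exact permutation p = 0.543). For *Col5a2* the percentages were 3.91% ± 0.207 and 4.21% ± 0.157 (two-sided exact permutation p = 0.0571), and for *Col24a1* 0.221% ± 0.0236 and 0.258% ± 0.0180 (two-sided exact permutation p = 0.0857), *Piezo1*-deficient bone before WT.

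Within type V, *Col5a1* stood at 0.285 ± 0.0272 of the *Col5a2* level in *Piezo1*-deficient and 0.271 ± 0.00863 in WT bone (SD, n = 4 each, two-sided exact permutation p = 0.400). *Col5a3* relative to *Col5a1* was 0.0745 ± 0.0147 in *Piezo1*-deficient and 0.106 ± 0.0102 in WT bone, with a slight overlap between *Piezo1*-deficient replicate 4 and WT replicate 1 (two-sided exact permutation p = 0.0571). *Col3a1* relative to its neighbour *Col5a2* was 0.721 ± 0.103 and 0.488 ± 0.121, *Piezo1*-deficient bone before WT (two-sided exact permutation p = 0.0571). For *Col24a1* relative to *Col5a1*, the values were 0.200 ± 0.0246 and 0.227 ± 0.0249 in that order (two-sided exact permutation p = 0.171). *Col11a1*, a cartilage collagen gene whose chain also joins type V chains in mixed fibrils, stood at 2.73 ± 0.291 and 2.97 ± 0.0551 times the *Col5a1* level (two-sided exact permutation p = 0.143). None of the 11 ratios passed an adjusted p of 0.05, which with 4 against 4 libraries would take at least 7 ratios at the smallest p of 0.0286.

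**Figure D4:**
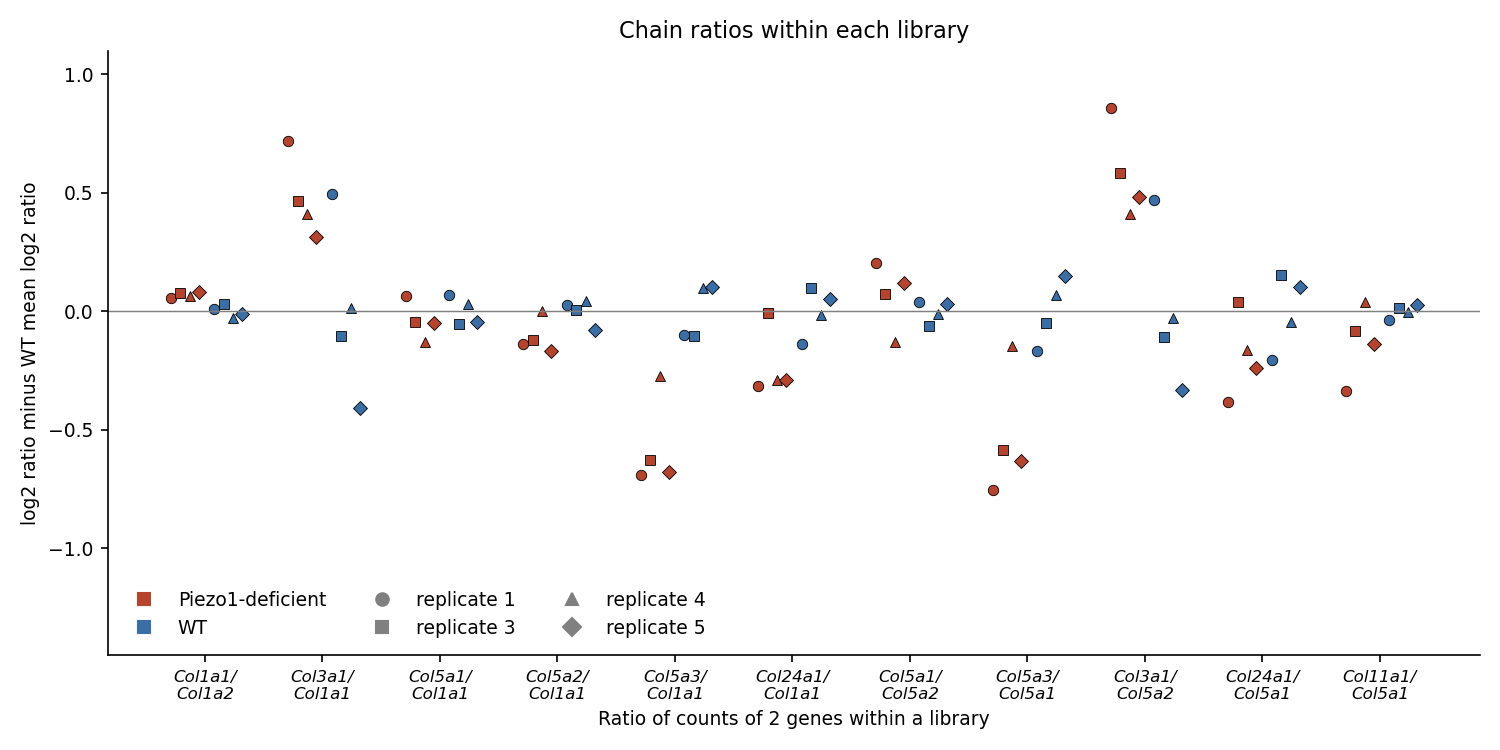
Log2 ratio of 2 genes within each library minus the mean log2 ratio of WT (y axis), for 11 ratios, with *Piezo1*-deficient libraries left of WT and symbols for the replicate number. *Col1a1*/*Col1a2* spans the narrowest range, *Col5a3*/*Col1a1* lies lower in all 4 *Piezo1*-deficient libraries, and *Col3a1*/*Col1a1* is spread widely in both genotypes.

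The genes whose pattern was most like each member were those with the smallest SD, over the 8 libraries, of the log2 ratio to it, among 9923 genes of at least 10 CPM on average. All 8 libraries share the 2 genotypes and the same scaling, so likeness here is a description. The measure also depends on how much each gene varies. A member that varies widely tends to stand further from other genes, and *Col3a1* varied most. Its coefficient of variation was 28.5% in *Piezo1*-deficient and 36.8% in WT bone. Genes that both vary little can give a small SD without sharing a pattern. Among the members themselves, *Col1a1* and *Col1a2* were closest (SD 0.0423), *Col1a2* stood at 0.0634 from *Col5a2* and 0.0640 from *Col5a1*, and *Col3a1* was 0.358 or more from each of the others. *Sparc*, for a collagen-binding glycoprotein of bone matrix, and *Mfap2* were nearest to *Col1a1* (SD 0.0501 and 0.0553). For *Col1a2* the nearest were *P3h3* and *Adamts2* (0.0477 and 0.0504), and *Adamts2*, which encodes a protease that removes the N-terminal propeptide, was also nearest to *Col5a2* (0.0332), before *Rcn3* (0.0425). *Kremen1* and *Irs1* were nearest to *Col5a1* (0.0519 and 0.0545). *Col3a1* had no such close companion, with *Tnn*, for tenascin W, at 0.115 and *Thbs2*, for thrombospondin 2, at 0.134. For *Col5a3* they were *Cdk9* and *Plin2* (0.0435 and 0.0520), and for *Col24a1* *Klhl21* and *Pcdhgb6* (0.0531 and 0.0583).

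Genes that act on fibrillar collagens were counted in lists by role. Over all tested genes, 2.04% were called higher and 0.973% lower. Leaving out single libraries gave 71 to 415 genes called higher and 49 to 271 lower over all tested genes. Of 24 genes that fold, modify or export procollagen, 2 were called higher by edgeR, with a median log2 fold change of 0.26. *Kdelr2*, for a receptor that returns chaperones to the endoplasmic reticulum, had 285 ± 11.9 CPM in *Piezo1*-deficient and 231 ± 14.4 CPM in WT bone (log2 fold change 0.31, adjusted p = 0.0383 from edgeR). *Fkbp14*, for a prolyl isomerase of that compartment, had 92.7 ± 2.91 and 74.6 ± 2.37 CPM in that order (0.31, adjusted p = 0.0204 from edgeR). *Kdelr2* was not called without any one of replicates 3, 4 and 5 of either genotype (adjusted p = 0.0565 to 0.151 from edgeR). *Fkbp14* was not called without *Piezo1*-deficient replicate 3 or 4 or WT replicate 3, 4 or 5 (adjusted p = 0.0522 to 0.0839 from edgeR). Leaving out single libraries gave 0 to 5 genes called higher in this list, and *Serpinh1*, its most abundant gene, for the collagen chaperone HSP47, had a log2 fold change of 0.27 (adjusted p = 0.0768 from edgeR).

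Of 13 genes for propeptide removal and crosslinking, 2 were called higher and 2 lower (median 0.27). *Lox*, for the lysyl oxidase that starts crosslinks, had 876 ± 85.3 CPM in *Piezo1*-deficient and 612 ± 50.6 CPM in WT bone (log2 fold change 0.52, adjusted p = 0.0164 from edgeR). Its relative *Loxl2* had 275 ± 38.5 and 148 ± 21.6 CPM in that order (0.89, adjusted p = 0.0056 from edgeR). The lower calls, *Loxl4* (log2 fold change -0.77, adjusted p = 0.0027 from edgeR) and *Pcolce2* (-1.19, adjusted p = 0.0027), for an enhancer of C-propeptide removal, were named after their values were seen. Without WT replicate 3 or 5 *Lox* was not called (adjusted p = 0.0637 and 0.0679 from edgeR), whereas *Loxl2* was called in all 15 alternative settings.

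The list of proteins that bind the fibril surface had the most calls. Of its 15 tested genes (of 17 listed), 7 were called higher, against 2.04% of all tested genes. The median log2 fold change of the list was 0.47. *Dcn*, for the proteoglycan decorin, had 1700 ± 73.1 CPM in *Piezo1*-deficient and 1184 ± 54.7 CPM in WT bone (0.52, adjusted p = 0.0051 from edgeR), and it was called in all 15 alternative settings. *Lum*, for lumican, had 1233 ± 87.4 and 928 ± 72.2 CPM in that order (0.41, adjusted p = 0.0275 from edgeR), but was not called without *Piezo1*-deficient replicate 3 or 4 or any one WT library (adjusted p = 0.0529 to 0.0999). The others called were *Postn*, *Col6a2*, *Aspn*, *Ogn* and *Col14a1*, named after their values were seen. *Aspn* and *Ogn* were called in all 15 alternative settings, whereas *Postn* was not called without WT replicate 3 or 4 (adjusted p = 0.0653 and 0.0593 from edgeR). *Col6a2* and *Col14a1* were not called without *Piezo1*-deficient replicate 5 or WT replicate 3, 4 or 5, nor *Col6a2* without *Piezo1*-deficient replicate 4 (adjusted p = 0.0656 to 0.155 from edgeR). Leaving out single libraries gave 3 to 7 called higher in this list, while 71 to 415 of all tested genes were.

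Of 11 collagen receptors, 1 was called higher and 2 lower (median 0.11). *Ddr2*, for a receptor kinase of fibrillar collagen on mesenchymal cells, had 313 ± 17.6 CPM in *Piezo1*-deficient and 236 ± 7.45 CPM in WT bone (log2 fold change 0.41, adjusted p = 0.0111 from edgeR), with an adjusted p of 0.0533 without WT replicate 4. *Oscar*, for a collagen receptor of osteoclasts, had 30.2 ± 4.06 and 43.5 ± 6.15 CPM in that order (-0.52, adjusted p = 0.0484 from edgeR), and was not called without any one of replicates 3, 4 and 5 of either genotype (adjusted p = 0.0537 to 0.151). The second lower call was *Itga1* (-0.43, adjusted p = 0.0189 from edgeR), named after its values were seen, which was not called without *Piezo1*-deficient replicate 4 or WT replicate 3, 4 or 5 (adjusted p = 0.0550 to 0.0742). Osteoclast markers as a list summed to 4901 to 7205 CPM in *Piezo1*-deficient and 8174 to 9336 CPM in WT bone, with 2 of 6 called lower, and their part in the *Oscar* value was not tested.

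Of 8 genes for collagen breakdown, 1 was called lower (median -0.21). This was *Mmp9*, for a gelatinase that osteoclasts express strongly, with 1881 ± 429 CPM in *Piezo1*-deficient and 2998 ± 133 CPM in WT bone (-0.67, adjusted p = 0.0294 from edgeR). It is also among the 6 osteoclast markers summed above. *Mmp9* was not called without *Piezo1*-deficient replicate 3 or 4 or WT replicate 3, 4 or 5 (adjusted p = 0.0729 to 0.0999 from edgeR). Of the 4 fibrillar collagen genes of cartilage, 1 was called lower. *Col2a1* had 294 ± 66.7 CPM in *Piezo1*-deficient and 2562 ± 1028 CPM in WT bone (-3.12, adjusted p = 4.0e-04 from edgeR). It is itself among the 10 chondrocyte markers whose lower sums are given above. In WT bone it gave between 1454.7 of 3836.1 CPM (replicate 4) and 3916.5 of 7274.4 CPM (replicate 1) of those sums. *Col11a1* had 5077 ± 575 CPM in *Piezo1*-deficient and 4194 ± 460 CPM in WT bone (0.28, adjusted p = 0.205 from edgeR).

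**Figure D5:**
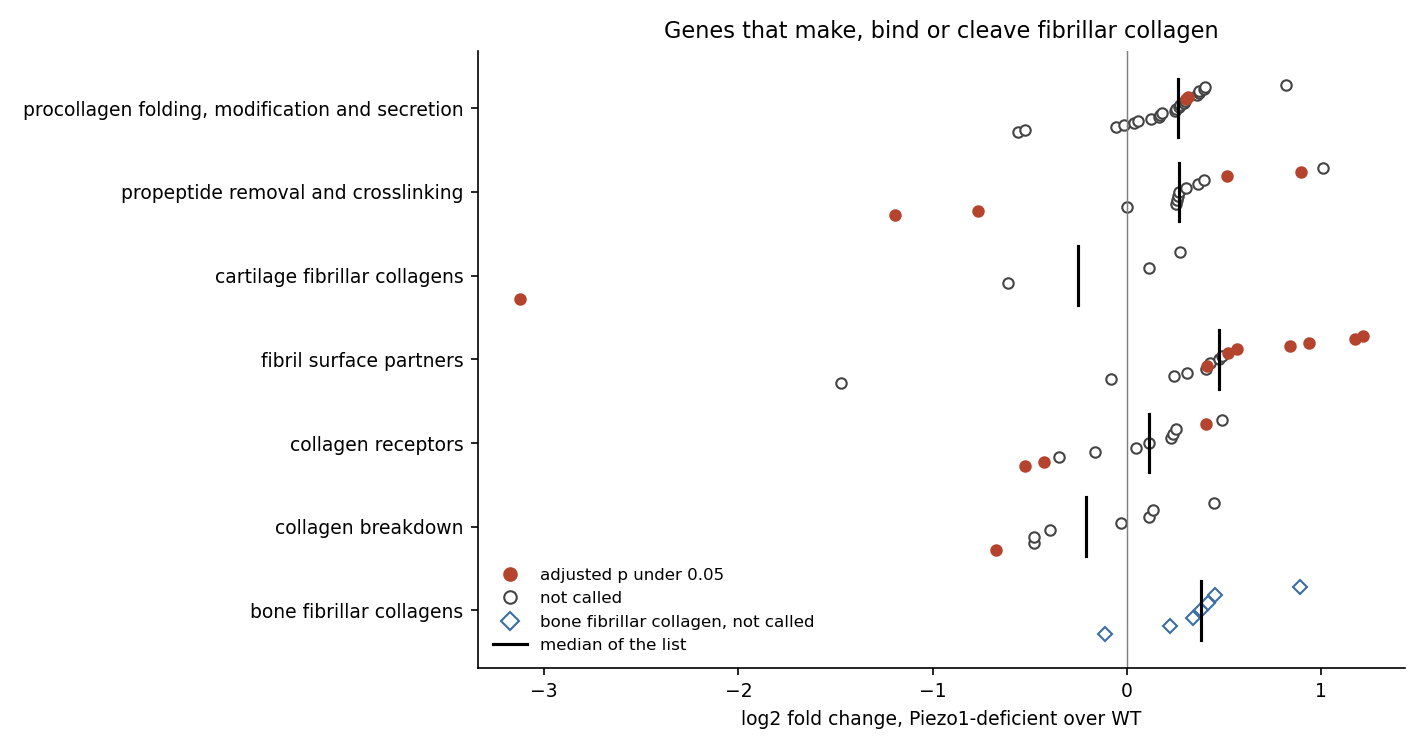
Log2 fold change of *Piezo1*-deficient over WT bone (x axis) for each tested gene of 6 lists and for the 7 bone fibrillar collagens, with calls at an adjusted p under 0.05 in red and the median of each list as a bar. Fibril surface partners have 7 genes called higher and the highest median of the lists shown, 0.47, beside 0.38 for the bone fibrillar collagens, of which none was called.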

How the data were processed

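RNA-Seq libraries were prepared by the authors from total RNA of cortical bone, 8 in all. Their deposited table holds raw counts per gene for each library. It also has columns of the authors' own comparison of genotypes, a log2 fold change, a p-value and an FDR as deposited, which were not used here. The study's methods name TopHat on mm9 and Cufflinks, whereas HISAT2 and GRCm38 stand in the submitters' processing notes. The counter, the use of strand and the treatment of reads matching several genes are not given in the sources used here. *Col1a1* shares 109 exonic bases with *Gm17329*, and *Col5a1* 212 with *2810430I11Rik* and *Gm13372*, in GENCODE M1 on NCBIM37, from which positions and transcript lengths were read.

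Genotypes were compared with edgeR 4.0.16 in R 4.3.3 (filterByExpr, TMM, quasi-likelihood F test, Benjamini-Hochberg over 15318 genes, calls at an adjusted p under 0.05). CPM are scaled to the TMM-adjusted library size. Single members and ratios were also tested by two-sided exact permutation over 70 arrangements. The fit was tested on simulated data. Alternatives were DESeq2 1.42.0, its size factors, library sizes without *Col1a1*, *Col1a2* and *Sparc*, other filters (none, or a mean of 5 CPM), a replicate block, 0.5 added to counts in ratios, medians, and leaving out each library. The members and lists were chosen with earlier results of these data known. Named were all members, the 2 called genes of highest mean CPM in each list (the 1 highest where none was called), and the 2 genes most like each member. Named outside this rule were *Serpinh1*, *Col11a1*, the marker genes, and *Loxl4*, *Pcolce2*, *Postn*, *Col6a2*, *Aspn*, *Ogn*, *Col14a1* and *Itga1*.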

Additional observations from a re-analysis of the deposited data

Results flagged for a closer look

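Of 36 groups of 4 libraries examined for the members and their ratios, 3 had 1 library far from the others, and chance alone flags about 1 group in 20. *Col3a1* had 4976 CPM in *Piezo1*-deficient replicate 1, against 2911.6 to 3179.4 CPM in the other libraries of that genotype. *Col5a3* stood at 0.1001% of the *Col1a1* level per kb in *Piezo1*-deficient replicate 4, against 0.0749 to 0.0782% in the others. *Col24a1* stood at 0.257% of the *Col1a1* level per kb in *Piezo1*-deficient replicate 3, against 0.207 to 0.211% in the others.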

How the results depend on the processing

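Each member kept the direction of its difference in all 15 alternatives of the edgeR comparison, while calls depended on the setting. Each of the 11 ratios kept its direction in all 12 of its alternatives. Of these, the union of exons shifts every library alike and cannot change a difference, and 0.5 added to counts this high hardly can. Beside 313 genes called higher and 149 lower, the Wald test of DESeq2 gave 606 and 343, and leaving out the libraries numbered 1 gave 601 and 412. Leaving out single libraries gave 71 to 415 higher and 49 to 271 lower. Of the 7 members, none was called in the main comparison, 2 by DESeq2 (*Col1a1*, 0.45 on the log2 scale, and *Col1a2*, 0.38), 4 without the libraries numbered 1 (*Col1a1* 0.40, *Col1a2* 0.32, *Col3a1* 0.94 and *Col5a1* 0.35), and 0 to 1 without single libraries, where the log2 fold change of *Col3a1* ran between 0.67 and 1.17. With a replicate block, 506 genes were called higher and 320 lower, and 2 members, *Col3a1* (log2 fold change 0.92, adjusted p = 0.0040 from edgeR) and *Col5a1* (0.40, adjusted p = 0.0418). Deviations of same-numbered samples correlated at 0.352, -0.253, 0.188 and -0.0198 for replicates 1, 3, 4 and 5. The highest correlations of these *Piezo1*-deficient samples with WT samples of another number were 0.0988, 0.306, 0.106 and 0.11. The best match thus had the same number for replicates 1 and 4 but not for 3 and 5, so the numbers were not taken to pair the samples. Whether the samples numbered 1 belong together was not tested. Among the lists, genes called higher numbered 0 to 11 for folding and secretion and 3 to 12 for fibril surface partners over the 15 alternatives. The cause of these shifts was not tested. Counting error of at most 2.87% was below the spread between samples for every member.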
